A study of Mus musculus with 4 samples.

Results

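The enzymes that shorten the poly(A) tails of mRNAs, and the proteins that coat those tails, were followed here in mouse livers with Cnot3 deleted. The set comprised 10 genes, of 18193 genes named on the arrays: the Ccr4-Not nucleases Cnot6, Cnot6l, Cnot7 and Cnot8, the Pan2-Pan3 pair, Parn, the cytoplasmic poly(A) binding proteins Pabpc1 and Pabpc4, and their partner Paip1. They were chosen by symbol, as all probe sets that name a member alone, which gave 28 of 45037 probe sets. Total RNA from whole livers had been hybridized to 4 Affymetrix mouse whole-genome GeneChips. The 2 Cnot3KO livers came from C57BL/6 mice at 4 weeks after birth, in which a floxed Cnot3 allele was deleted by Cre recombinase driven by the albumin promoter. The paper reports that this Cre acted in many liver cells already before birth, and in most liver cells after it. Before birth, by its account, albumin is expressed mainly in hepatoblasts, which give rise to hepatocytes or cholangiocytes. The 2 Control livers were of the same background and age and are labelled wild type. The study's methods list as controls mice with floxed Cnot3 alleles and no Cre, and mice with the Cre transgene and at most 1 floxed allele, and which of these genotypes the 2 Control livers carried is not given in the sources used here. Because whole livers were used, every value also includes RNA of cells in which Cre did not act. Fewer cells of a type cannot be told apart from less RNA per cell.

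The poly(A) tail protects an mRNA and helps it to be translated, and its shortening is the first step of most cytoplasmic mRNA decay. Pan2-Pan3 is thought to trim long tails first, and the Ccr4-Not complex then removes the rest. Ccr4-Not has nucleases of 2 families, of which 1 of each is held in a complex at a time: Cnot6 or its paralog Cnot6l, and Cnot7 or its paralog Cnot8. Cnot3 has no nuclease activity and belongs to the part of the complex that helps it act on its targets. Poly(A) binding proteins occupy the tail, bind the translation factor eIF4G and recruit both deadenylase complexes.

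All levels are log2 of the deposited intensity, and all differences are Cnot3KO minus Control on that scale. The standard error (SE) is from limma, which fits a linear model to each probe set. It draws the estimate of the spread of each toward a prior taken from all probe sets. A probe set was called at a Benjamini-Hochberg adjusted p under 0.05 over the 38405 probe sets that passed a filter on low values. Probe sets differ in sequence, so levels are not compared between probe sets. Cnot3 itself, the targeted gene, was at 5.15 and 5.30 in Cnot3KO livers and at 5.99 and 6.04 in Control livers with probe set 1435965_at. The difference was -0.79 ± 0.16 (adjusted p = 0.0372, limma). This call was lost when any 1 array was left out, with differences of -0.87 to -0.71. Leaving out an array also lowered the number of calls over the whole series, so such a loss does not single out a gene. The other probe set of Cnot3, 1441465_at, differed by -0.40 ± 0.19 (adjusted p = 0.218) and did not pass. Whether either probe set lies in the deleted exons is not given in the sources used here. Albumin and the other hepatocyte genes were abundant on all arrays. The summed intensity of 8 hepatocyte markers was 61587 and 62377 in Cnot3KO livers against 61735 and 60573 in Control livers. This sum rests mostly on the markers with the highest levels, such as Alb and Apoa1, and says little of the others. Of the 8, 1 was called lower, Apob, at 45.6% of its Control intensity. Several lists of other cell types did differ. The summed intensity was 467 and 242 in Cnot3KO livers against 38.0 and 41.1 in Control livers for 5 cholangiocyte markers (4 called higher). It was 3100 and 2509 in Cnot3KO livers against 1080 and 815 in Control livers for 7 stellate cell and fibroblast markers (5 called higher), and 3824 and 4243 in Cnot3KO livers against 2357 and 2113 in Control livers for 8 macrophage and Kupffer cell markers (2 called higher). For 3 erythroid markers it was 74.4 and 118 in Cnot3KO livers against 391 and 418 in Control livers, with 2 called lower. No marker of these lists was removed by the filter, and the part of these cells in the values below was not tested.

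Of the 10 genes, Pan2 alone passed the test, and it was lower in Cnot3KO livers. None was called higher by limma after adjustment, while 1 of 27 probe sets tested, of Cnot8, was higher at an unadjusted p under 0.05. Over all probe sets, 4.78% were called lower and 8.48% higher, and taking 1 probe set per gene, 4.64% of 16758 genes were called lower and 12.2% higher. With 1 of 27 probe sets called lower, the share called lower was close to that background, and a single call says little of the set. At an unadjusted p under 0.05, 9 of the 27 probe sets were lower in Cnot3KO livers, against 14.5% of all probe sets, and 1 was higher, against 16.5%. In 15 of the 27 (55.6%) both Cnot3KO values lay below both Control values, which held for 35.9% of all probe sets, and in 3 (11.1%) both lay above, which held for 26.9%. The median difference of the 27 probe sets was -0.41, against -0.08 over all probe sets tested, and by gene it was -0.42 against 0.00. These shares describe the set and are no test of it, because probe sets of a gene measure the same transcripts. Leaving out 1 array moved the difference by over 1.5 times in 19 of the 27 probe sets. Those that moved by less were that of Pan2, both of Cnot8, 3 of the 4 of Cnot6, 1460665_a_at of Cnot7 and 1458465_at of Pan3.

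**Figure D1:**
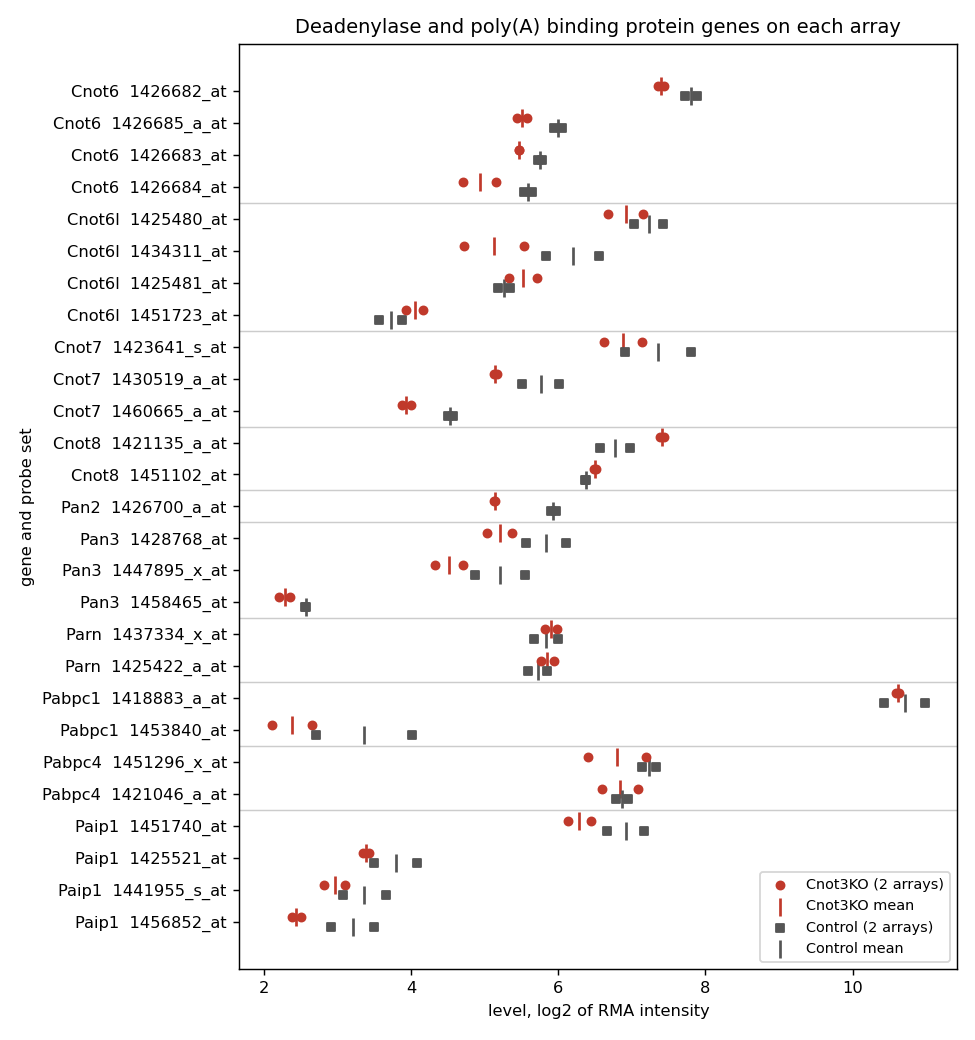
Level of each of the 27 probe sets tested, as log2 of the RMA intensity (x axis), in 2 Cnot3KO livers (circles) and 2 Control livers (squares), with a tick at each group's mean. Genes are separated by lines and the first probe set of each gene is the one with the highest mean. All 4 probe sets of Cnot6 and the probe set of Pan2 have both Cnot3KO livers to the left of both Control livers, and both probe sets of Cnot8 have them to the right.

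Pan2 is the catalytic subunit of Pan2-Pan3. Its only probe set, 1426700_a_at, read 5.14 and 5.13 in Cnot3KO livers, against 5.96 and 5.90 in Control livers. The groups did not overlap, and the gap between them was far larger than the spread within either. The difference was -0.80 ± 0.16 (95% interval -1.19 to -0.40, adjusted p = 0.0328, limma), or 57.6% of the Control intensity, close in size to that of Cnot3. The call rested on all 4 arrays. Leaving out any array kept the difference between -0.83 and -0.76 but ended the call. The call was also lost when arrays were centred on the ribosomal protein gene Rplp0 (adjusted p = 0.0778, limma). The difference was then -0.87 with a larger SE of 0.27, and Rplp0 itself differed by 0.36 between the 2 Control livers. This centring also lowered the calls over all probe sets, from 3258 to 2455 higher and from 1837 to 1521 lower. Its loss therefore does not single out Pan2.

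Since Pan2 was the gene called, the 250 bases upstream of its annotated start are shown (RefSeq, GRCm38.p6, chr10:128303085-128303334, plus strand, 5′ to 3′). Capitals mark CCAAT on either strand (read as ATTGG when on the other strand), the core of a promoter element bound by the factor NF-Y in many genes. The motif was chosen after the sequence was seen.
Pan2: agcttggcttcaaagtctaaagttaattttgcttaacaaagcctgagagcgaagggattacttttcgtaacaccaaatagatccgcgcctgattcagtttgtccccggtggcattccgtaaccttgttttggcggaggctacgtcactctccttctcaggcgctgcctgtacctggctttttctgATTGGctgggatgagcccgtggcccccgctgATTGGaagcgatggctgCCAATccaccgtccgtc
The window holds 3 such matches, 1 on the strand of the gene and 2 on the other, all in its last part before the start. Upstream windows of the same length were on hand for 8 of the 10 genes, and CCAAT occurred in those of 2, Pan2 and Cnot6, whereas 37.5% of 27025 genes have it in at least 1 of their windows (33.8% of 32851 windows). A match describes the letters only.

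Pan3 has no nuclease activity of its own and tethers Pan2 to poly(A) binding protein. With its brightest probe set, 1428768_at, Pan3 read 5.37 and 5.03 in Cnot3KO livers and 6.11 and 5.57 in Control livers, a difference of -0.64 ± 0.25 (95% interval -1.26 to -0.01, adjusted p = 0.157). The groups were apart, but the 2 Control livers themselves differed by 0.54, and the difference was -0.36 without Control replicate 1 and -0.91 without Control replicate 2. Probe set 1447895_x_at read 4.71 and 4.33 in Cnot3KO livers and 5.55 and 4.87 in Control livers (-0.69 ± 0.28, adjusted p = 0.173). A weak probe set, 1458465_at, read 2.21 and 2.36 in Cnot3KO livers and 2.58 and 2.56 in Control livers (-0.28 ± 0.16, adjusted p = 0.298). All 3 thus had both Cnot3KO livers below both Control livers and none was called. The other, 1437883_s_at, read 1.19 and 0.76 in Cnot3KO livers and 1.28 and 0.97 in Control livers, did not pass the filter on low values and was not tested. Within an array, the log2 ratio of Pan2 to Pan3 differed between the groups by -0.16 (exact permutation test, 2-sided, p = 0.667, where 2 arrays against 2 cannot give less than 0.333).

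Cnot6 and Cnot6l are the nucleases of the Ccr4 family. Cnot6 had 4 probe sets, and in each of them both Cnot3KO livers lay below both Control livers. The brightest, 1426682_at, read 7.44 and 7.36 in Cnot3KO livers and 7.89 and 7.73 in Control livers, a difference of -0.41 ± 0.17 (95% interval -0.82 to 0.01, adjusted p = 0.169). Probe set 1426685_a_at read 5.44 and 5.58 in Cnot3KO livers and 5.94 and 6.06 in Control livers (-0.49 ± 0.16, adjusted p = 0.114). The other 2 also stood apart, by more for 1426684_at, which read 4.71 and 5.16 in Cnot3KO livers and 5.54 and 5.64 in Control livers (-0.65 ± 0.21, adjusted p = 0.104), than for 1426683_at, which read 5.46 in both Cnot3KO livers and 5.78 and 5.72 in Control livers (-0.29 ± 0.16, adjusted p = 0.272). None of the 4 was called, although all had the same sign and 2 had an unadjusted p under 0.05, 0.0279 for 1426685_a_at and 0.0239 for 1426684_at.

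The paralog Cnot6l gave no single picture, since its probe sets disagreed in direction. The brightest, 1425480_at, read 7.16 and 6.68 in Cnot3KO livers and 7.42 and 7.03 in Control livers, so that the groups overlapped (-0.31 ± 0.24, adjusted p = 0.433). Probe set 1434311_at read 5.53 and 4.72 in Cnot3KO livers and 6.56 and 5.83 in Control livers. With all 4 arrays this was the largest difference of the 27 probe sets, -1.06 ± 0.37, with a 95% interval of -1.99 to -0.14, and was not called (adjusted p = 0.121). The livers of each group were themselves apart, by 0.81 in Cnot3KO and 0.73 in Control. The difference was -0.66 without Cnot3KO replicate 2 and -0.70 without Control replicate 1, where others of the 27 were larger, and -1.47 without Cnot3KO replicate 1. The remaining 2 probe sets had the other sign. Probe set 1425481_at read 5.71 and 5.32 in Cnot3KO livers and 5.19 and 5.35 in Control livers (0.25 ± 0.20, adjusted p = 0.437), and 1451723_at read 4.16 and 3.93 in Cnot3KO livers and 3.88 and 3.56 in Control livers (0.32 ± 0.20, adjusted p = 0.319). Where in the transcript each probe set lies was not examined here. The log2 ratio of Cnot6l to Cnot6 within an array, from the brightest probe sets, differed between groups by 0.10 (exact permutation p = 0.667), and its sign changed when Cnot3KO replicate 1 or Control replicate 2 was left out.

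Cnot7 and Cnot8 are the nucleases of the Caf1 family, close paralogs that compete for the same place in the complex. Cnot7 read 7.13 and 6.63 in Cnot3KO livers and 7.81 and 6.90 in Control livers with 1423641_s_at, a probe set whose suffix marks probes shared with other transcripts. These groups overlapped, and the difference was -0.48 ± 0.35 (95% interval -1.36 to 0.41, adjusted p = 0.404). The suffix is also that of 1441955_s_at of Paip1. Probe sets 1447895_x_at of Pan3, 1437334_x_at of Parn and 1451296_x_at of Pabpc4 end in _x_at. An alternative fit, given below, took out the probe sets of both suffixes. The other probe sets of Cnot7 were tighter. With 1460665_a_at the livers read 3.87 and 3.99 in Cnot3KO and 4.57 and 4.50 in Control (-0.60 ± 0.16, adjusted p = 0.0695), the lowest adjusted p of the probe sets not called. With 1430519_a_at they read 5.12 and 5.17 in Cnot3KO and 5.51 and 6.01 in Control (-0.62 ± 0.22, adjusted p = 0.127).

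Cnot8 was the only gene whose brightest probe set stood higher in both Cnot3KO livers. Probe set 1421135_a_at read 7.43 and 7.38 in Cnot3KO livers and 6.57 and 6.98 in Control livers, a difference of 0.63 ± 0.20 (95% interval 0.13 to 1.13, unadjusted p = 0.023, adjusted p = 0.102), or 1.55 times the Control intensity. Its second probe set, 1451102_at, also had both Cnot3KO livers above both Control livers, but by little, with 6.51 and 6.49 in Cnot3KO and 6.36 and 6.38 in Control (0.13 ± 0.16, adjusted p = 0.618), and the sign turned (-0.03) when the arrays were quantile-normalized again. Neither passed the test. Set against each other within each array, Cnot8 over Cnot7 had a log2 ratio of 0.30 and 0.75 in Cnot3KO livers and of -1.24 and 0.08 in Control livers. Only the difference of 1.11 between the groups can be read, since the ratio itself depends on the probes. Both Cnot3KO livers lay above both Control livers, which gives the smallest p this design allows (exact permutation p = 0.333). Without Control replicate 1 the difference was 0.45, and without Control replicate 2 it was 1.76.

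**Figure D2:**
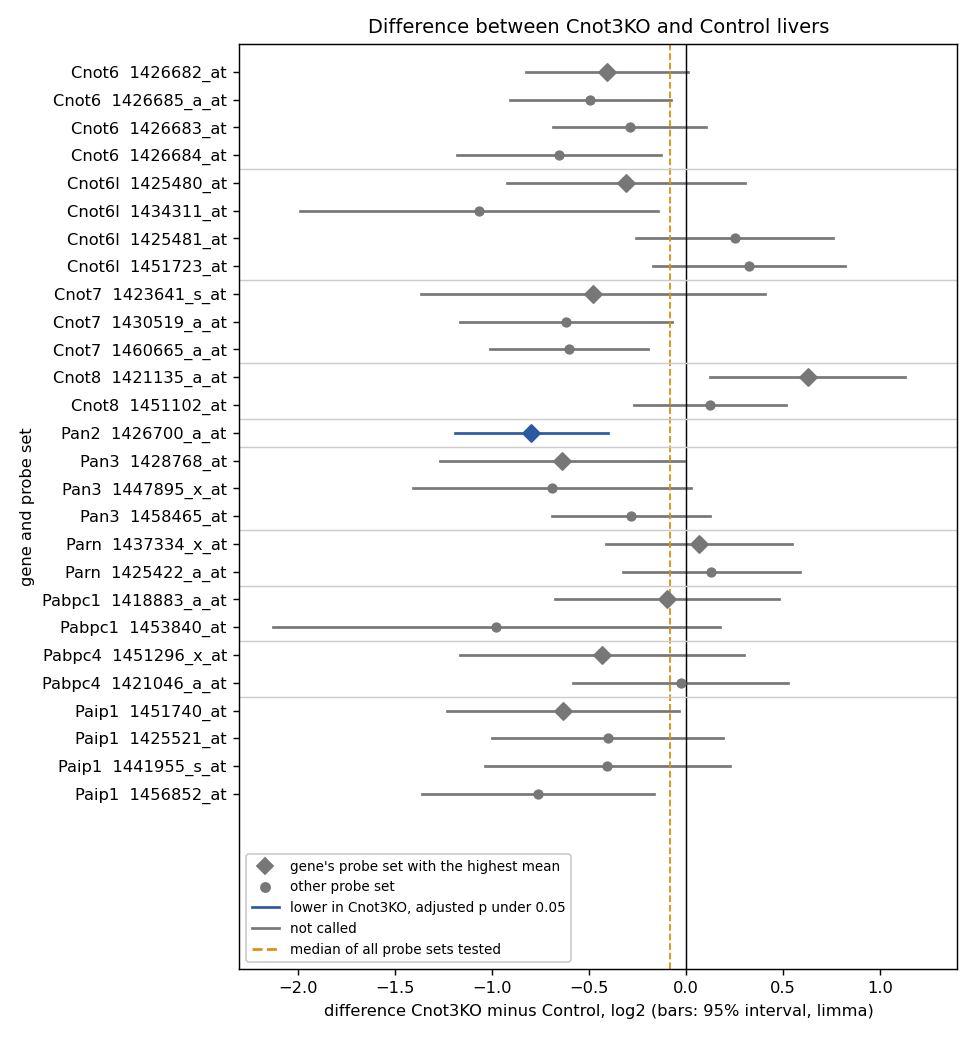
Difference between Cnot3KO and Control livers (log2, x axis) for each of the 27 probe sets tested, with 95% intervals from limma. Diamonds are the probe set with the highest mean of each gene, the dashed line is the median of all probe sets tested (-0.08), and only Pan2, at -0.80, was called. The probe sets of Cnot6l lie on both sides of 0.

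Parn is a deadenylase that acts outside both complexes, binds the mRNA cap and also trims the ends of small nuclear and nucleolar RNAs. Probe set 1437334_x_at read 5.98 and 5.82 in Cnot3KO livers and 5.99 and 5.67 in Control livers, a difference of 0.07 ± 0.19 (95% interval -0.41 to 0.55, adjusted p = 0.834). Probe set 1425422_a_at read 5.94 and 5.76 in Cnot3KO livers and 5.85 and 5.59 in Control livers, or 0.13 ± 0.18 (95% interval -0.33 to 0.59, adjusted p = 0.658). In both probe sets the groups overlapped, and the sign turned for both when the arrays were quantile-normalized again and for 1437334_x_at also when they were centred on Rplp0.

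Pabpc1 is the main cytoplasmic poly(A) binding protein, whose mRNA is translated under control of its own product. Its main probe set, 1418883_a_at, read 10.58 and 10.64 in Cnot3KO livers and 10.98 and 10.43 in Control livers. Both Cnot3KO values thus lay between the 2 Control values, and the difference was -0.10 ± 0.23 (95% interval -0.67 to 0.48, adjusted p = 0.806). A second probe set, 1453840_at, was dim and variable, with 2.66 and 2.11 in Cnot3KO livers and 4.01 and 2.71 in Control livers (-0.98 ± 0.46, adjusted p = 0.218), the largest SE of the set. Pabpc4, an inducible relative first described in activated T cells, read 6.41 and 7.20 in Cnot3KO livers and 7.33 and 7.14 in Control livers with 1451296_x_at (-0.43 ± 0.29, 95% interval -1.16 to 0.30, adjusted p = 0.365). With 1421046_a_at it read 6.60 and 7.08 in Cnot3KO livers and 6.95 and 6.78 in Control livers (-0.03 ± 0.22, 95% interval -0.58 to 0.53, adjusted p = 0.948). In both probe sets Cnot3KO replicate 1 was the lowest of the 4 livers and the groups overlapped. The log2 ratio of Pabpc4 to Pabpc1 within an array differed between groups by -0.33 (exact permutation p = 0.667), and by 0.31, of the other sign, when all probe sets of each gene were averaged.

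Paip1 binds poly(A) binding protein and the initiation factors eIF4A and eIF3 and promotes translation. All 4 of its probe sets had lower means in Cnot3KO livers and none was called. The brightest, 1451740_at, read 6.44 and 6.13 in Cnot3KO livers and 7.17 and 6.67 in Control livers, a difference of -0.63 ± 0.24 (95% interval -1.23 to -0.03, adjusted p = 0.146). Without Control replicate 1 it was -0.38 and without Control replicate 2 it was -0.88. Probe set 1456852_at, which was dim, read 2.38 and 2.51 in Cnot3KO livers and 2.92 and 3.49 in Control livers (-0.76 ± 0.24, adjusted p = 0.0984). The other 2 were dim as well. Probe set 1425521_at read 3.43 and 3.35 in Cnot3KO livers and 4.08 and 3.50 in Control livers (-0.40 ± 0.24, adjusted p = 0.307), and 1441955_s_at, whose groups overlapped, read 3.10 and 2.82 in Cnot3KO livers and 3.66 and 3.07 in Control livers (-0.40 ± 0.25, adjusted p = 0.328). Relative to Pabpc1 on the same array, Paip1 stood lower in both Cnot3KO livers, with a difference of the log2 ratio of -0.54 (exact permutation p = 0.333, the smallest possible). That difference came to -0.01 when the probe sets of each gene were averaged. Thus it rested on the choice of probe set.

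Other genes of poly(A) tail metabolism were read from 4 lists, with 1 probe set per gene. Of 6 other Ccr4-Not subunits tested, Cnot3 was called lower and Cnot11 higher. Cnot11, which docks with Cnot10 on the scaffold Cnot1, read 7.38 and 7.42 in Cnot3KO livers and 5.83 and 6.28 in Control livers (1.35 ± 0.21, adjusted p = 0.0182), and its call was lost without either Cnot3KO array or without Control replicate 1 (adjusted p = 0.0570 to 0.0689). Cnot11 was called with 1 of its 3 probe sets, and Cnot2, the partner of Cnot3 in the complex, was called higher with 2 of its 6, though not with the brightest. The median difference of the 6, the targeted gene Cnot3 among them, was 0.40, and Cnot1 could not be tested because its probe sets also name another gene. Of 6 other exonucleases that act on poly(A), 1 was called. This was Toe1, a nuclear relative of Cnot7 that trims small nuclear RNAs. It read 5.73 and 5.59 in Cnot3KO livers and 4.81 and 4.68 in Control livers (0.91 ± 0.17, adjusted p = 0.0268). Leaving out any 1 of the 4 arrays ended its call, with differences of 0.84 to 0.99. Its other probe set was not called. The median of that list was 0.02.

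Of 17 other poly(A) binding proteins and partners tested, 1 was called, with a median difference of 0.01 over the list. Gspt2 encodes eRF3b, a translation termination factor that binds poly(A) binding protein. It read 5.06 and 3.92 in Cnot3KO livers and 2.00 and 2.63 in Control livers (2.17 ± 0.43, adjusted p = 0.0323). The probe set was dim in Control livers, below the medians of those arrays (3.11 and 3.14), and the 2 Cnot3KO livers differed by 1.14. The call held without Cnot3KO replicate 2 and was lost without any other array (adjusted p = 0.0612 to 0.129). Gspt2 was called with 1 of its 2 probe sets. By probe sets other than the brightest, its paralog Gspt1 was called lower with 2 of 6 and Pabpn1, the nuclear poly(A) binding protein, higher with 1 of 4. Of 13 poly(A) polymerases and terminal nucleotidyltransferases, which add adenosines or, for some, uridines to RNA ends, 1 was called and the median difference was 0.38. This was Papolg, a nuclear poly(A) polymerase, with 5.66 and 5.34 in Cnot3KO livers and 3.96 and 4.33 in Control livers (1.36 ± 0.22, adjusted p = 0.0193), and leaving out the first array of either group ended its call, at an adjusted p of 0.0862 without that of Cnot3KO and 0.0733 without that of Control. The other probe set of Papolg was not called. Tut7, a uridylyltransferase, was called higher with 1 of its 2 probe sets, though not with the brightest. At an unadjusted p under 0.05, 5 of these 13 were higher in Cnot3KO livers and 1 was lower, against 22.9% and 12.4% of all genes. Cnot2, Gspt1, Pabpn1 and Tut7 were named after their values were seen. Across the 4 lists, by the brightest probe sets, 4 of 42 genes were called higher and 1 lower, against 12.2% and 4.64% of all genes. The 1 called lower was Cnot3, the targeted gene.

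**Figure D3:**
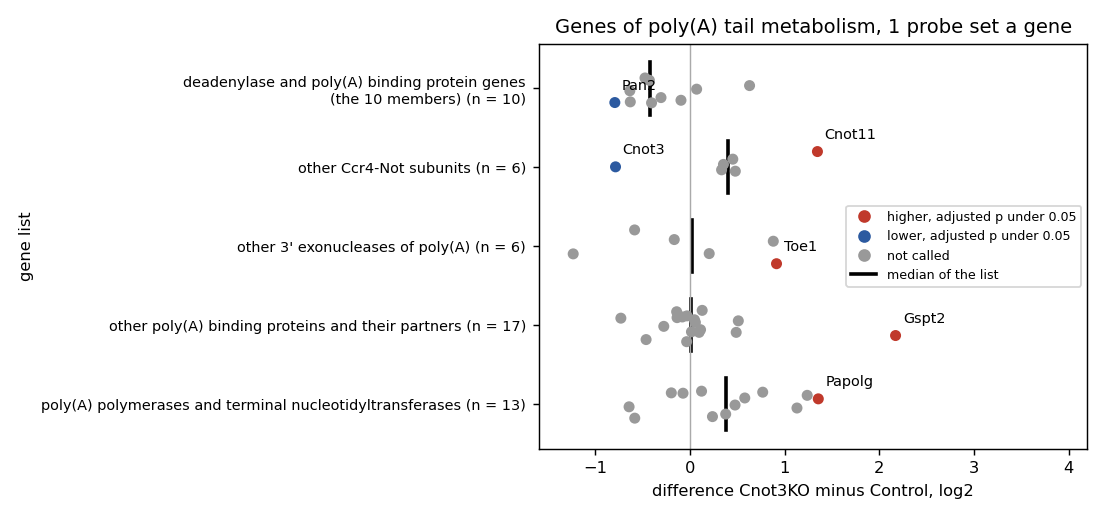
Difference between Cnot3KO and Control livers (log2, x axis) for each gene tested, with the brightest probe set of a gene standing for it, in the 10 deadenylase and poly(A) binding protein genes and in 4 lists of related genes. Black bars are list medians, and the genes called at an adjusted p under 0.05 are named: Pan2 and Cnot3 lower, Cnot11, Toe1, Gspt2 and Papolg higher.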

How the data were processed

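Total RNA (Isogen II) of 4 livers, 1 per array, was labelled and hybridized to Affymetrix mouse whole-genome GeneChips, and the authors summarised probe sets by RMA and used GeneSpring. The deposited intensity values are linear RMA values (1.27 to 16933 over 45037 probe sets), already background-corrected and normalized between arrays, and were converted here to log2 with no constant. The number of arrays limits the precision, with a median SE of a log2 difference of 0.192. All 4 value columns were mapped to a sample from GEO's labels (0 columns unmapped). Replicates are livers that the labels number 1 and 2 in each group. The limma p-values combine the spread between these 2 livers per group with a prior taken from all probe sets. That prior supplied 3.40 of the 5.40 degrees of freedom. For Pan2 the SE was 0.157 in limma, against 0.031 in the methods' t-test, which uses the spread of that probe set alone.

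Probe sets above the 20th percentile of their array on at least 1 array were kept (38405, or 85.3%), after the study's own cut-off. GEO's platform annotation gave 34945 probe sets with 1 gene, 932 with several and 9160 with none, and only those with 1 were named. Groups were compared with limma 3.58.1 (lmFit and eBayes, R 4.3.3), 2-sided, with Benjamini-Hochberg adjustment over all probe sets kept. Where a gene had several probe sets, the brightest on average stood for it. All member probe sets, Cnot3 and, in the other lists, the genes called are named. The members and lists were chosen with earlier results of these data known. The limma code was tested on simulated data. Ratios of partner genes within an array were compared in 5 pairs by exact permutation tests, with a p of 0.667 for each pair after Benjamini-Hochberg adjustment over the 5. Other filters, scalings, priors, a replicate block, the methods' t-test, left-out arrays and thresholds were tried. Cnot1, Eif4g1 and Tent5d, and the markers Spp1, Hbb-b1 and Ly6g were not tested since no probe set names them alone, and Pabpc4l, Pabpc5 and Pabpc6 since the filter removed them. Of the marker lists not given in the report, 0 of 7 sinusoidal endothelial markers were called, 1 of 8 lymphoid (higher) and 1 of 4 neutrophil (higher).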

Additional observations from a re-analysis of the deposited data

How the results depend on the processing

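Of the 27 probe sets, 1 was called lower and 0 higher, which held without a filter, with a filter at the 50th percentile (24 probe sets left), with arrays centred on their medians, with a robust prior and with probe sets of the suffixes _x_at and _s_at taken out (22 left). The count called lower was 2 after quantile normalization (Cnot7 1460665_a_at joined Pan2, adjusted p = 0.0429), 0 with arrays centred on Rplp0, 0 with a prior that follows intensity (Pan2 at 0.0505), and 0 with the methods' t-test after adjustment (Pan2 at 0.150). Over all probe sets of the series, the methods' t-test after adjustment called 0 higher and 1 lower. A call lost with it therefore does not single out a gene and says little of Pan2. Without adjustment, at p under 0.05, the methods' t-test gave 5 of the 27 lower and 1 higher. An adjusted p under 0.10 or 0.01 in limma gave 3 or 0 lower. With any 1 array left out, 0 probe sets were called, where the lone array of a group is assumed to vary like those of the other group. The count of member genes called, 1, was 0 with arrays centred on Rplp0, 0 with the intensity prior, 0 with the t-test after adjustment, 2 with it unadjusted, and 0 with any array left out. Pan2 differed by -0.87 with Rplp0 centring, a setting that also gave fewer calls over the whole series. The sign turned in 5 of the 27 probe sets under at least 1 alternative, none of them called under any limma fit: both of Parn, 1451102_at of Cnot8, 1418883_a_at of Pabpc1 and 1421046_a_at of Pabpc4.

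The replicate numbers 1 and 2 occur in both groups, but nothing in the labels says that they pair the livers. Deviations of same-numbered arrays correlated at 0.232 over the kept probe sets, with only 2 pairs of arrays. A replicate block gave 2 called lower (Pan2, adjusted p = 0.0499, and Cnot6l 1434311_at, 0.0320) and 1 gene called. In 14 of the 27 probe sets (51.9%) the arrays numbered 1 read above those numbered 2 in both groups, against 27.9% of all. Cnot3 1435965_at lost its call with Rplp0 centring (0.0723), the block (0.0517), the intensity prior (0.0551), the t-test (0.184) and each array left out (0.0885 to 0.211). Gspt2 lost it with the block (0.0637) and Toe1 with Rplp0 centring (0.0964). Cnot11, Toe1, Gspt2 and Papolg each lost it with the t-test (0.184 to 0.283) and with at least 1 array left out. As the t-test after adjustment called 0 probe sets higher and 1 lower in the whole series, its losses do not single out a gene.

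The difference of log2 ratios changed sign with an array left out for Cnot6l over Cnot6 (range -0.095 to 0.29, negative without Cnot3KO replicate 1 and, at -0.012, without Control replicate 2), for Pan2 over Pan3 (-0.40 to 0.083, positive without the same arrays, at 0.0064 without Cnot3KO replicate 1), and for Pabpc4 over Pabpc1 (-0.70 to 0.034, positive without Cnot3KO replicate 1, and 0.31 with probe sets averaged). Paip1 over Pabpc1 moved to -0.014 with probe sets averaged. With 2 livers per group the SE of a member was 0.16 to 0.46, so differences of the size of most members here could not be separated from the spread.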
